A study of Mus musculus with 12 samples.

Results

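The genes described here make cholesterol or sense, move and export it. They were chosen by name, as a list of 34 genes, and 30 of them were measured among the 22180 genes of the arrays. Acat2, Idi1, Soat1 and Nr1h2 were dropped, because no probe set was annotated with that symbol alone. For a gene with more than 1 such probe set the brightest over 12 arrays was kept, which applied to Npc1 and Scap. The list falls into 5 roles. They are sterol sensing with the processing of sterol regulatory element binding proteins (SREBPs), the mevalonate steps, the squalene and sterol steps, sterol uptake and transport, and the liver X receptors (LXRs) with the efflux pumps.

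RNA came from brown adipose tissue of male mice aged 10 weeks on standard chow. Zbtb7b encodes a transcription factor with zinc fingers, and animals lacking it (KO) were set beside wild-type (WT) animals. Housing was at 22 °C (Room Temperature) or, for 4 h, at 4 °C (Cold), which made 4 groups of 3 arrays each (WT Room Temperature, KO Room Temperature, WT Cold and KO Cold), and this small number bounds the precision. The labels do not give the strain or say in which cells, or by which allele, the gene was lost. They call the arrays biological replicates in the titles but number pools in another field, so how many animals stand behind an array is unknown, and a p-value speaks only of the spread among these arrays.

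Cells make cholesterol from acetyl-CoA through mevalonate, farnesyl diphosphate, squalene and a series of sterols. When sterols in the endoplasmic reticulum are low, the escort protein SCAP carries SREBP-2 to the Golgi, where the site-1 and site-2 proteases release its active part, which enters the nucleus and turns on the genes of the pathway. INSIG proteins hold SCAP back when sterols are plentiful, and oxysterols activate LXRs, which turn on genes of cholesterol export. In brown fat, cold is known to drive lipid uptake, lipid breakdown and lipid synthesis together, and membranes and lipid droplets both hold cholesterol.

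Promoter sequences of the mouse assembly GRCm38.p6 from RefSeq were found for 24 of the 30 measured genes. Fdps, Fdft1, Sqle, Npc1, Stard4 and Abcg1 had none and were not searched. In the 250 bases before a start, on both strands, the letters searched were TCACNCCAC for the sterol regulatory element, CCAAT for the box bound by NF-Y, GGGCGG for the GC box and, for the direct repeat bound by LXRs, AGGTCA followed after any 4 bases by AGGTCA. Counting every listed start of a gene, CCAAT stood in 19 of the 24 genes (79.2%), against 37.5% of all 27025 genes and 33.9% of all 32851 promoters. GGGCGG stood in 20 genes (83.3%), against 35.4% of all genes and 32.7% of all promoters. The sterol element stood in 1 gene, Hmgcs1 (1.23% of all genes and 1.05% of all promoters). The LXR repeat stood in 0 of the 24 genes and in 5 of all 32851 promoters (0.0152%), too few for its absence here to tell anything. Printed here are the promoters of the gene with the sterol element and of 3 other enzyme genes whose cold values are given further on, Hsd17b7, Mvk and Nsdhl. All 4 run 5′ to 3′ on the strand of the gene and end at the base before the start, and capitals mark the matches on either strand.
Hmgcs1, chr13:119690101-119690350, plus strand: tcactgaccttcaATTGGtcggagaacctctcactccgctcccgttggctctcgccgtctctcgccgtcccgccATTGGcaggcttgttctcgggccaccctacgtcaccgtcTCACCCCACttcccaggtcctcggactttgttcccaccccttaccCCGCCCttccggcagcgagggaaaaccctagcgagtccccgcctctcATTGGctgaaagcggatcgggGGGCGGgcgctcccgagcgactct
Hsd17b7, chr1:169969206-169969455, minus strand: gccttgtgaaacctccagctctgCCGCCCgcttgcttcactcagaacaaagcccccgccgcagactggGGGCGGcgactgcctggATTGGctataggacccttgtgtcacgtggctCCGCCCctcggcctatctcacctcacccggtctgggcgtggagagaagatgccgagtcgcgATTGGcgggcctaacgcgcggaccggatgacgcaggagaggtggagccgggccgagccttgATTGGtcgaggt
Mvk, chr5:114444019-114444268, plus strand: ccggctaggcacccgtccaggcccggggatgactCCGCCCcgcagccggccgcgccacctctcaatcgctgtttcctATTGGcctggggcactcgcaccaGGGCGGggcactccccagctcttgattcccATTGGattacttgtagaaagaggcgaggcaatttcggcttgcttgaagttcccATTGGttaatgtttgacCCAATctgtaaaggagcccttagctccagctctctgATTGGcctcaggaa
Nsdhl, chrX:72918271-72918520, plus strand: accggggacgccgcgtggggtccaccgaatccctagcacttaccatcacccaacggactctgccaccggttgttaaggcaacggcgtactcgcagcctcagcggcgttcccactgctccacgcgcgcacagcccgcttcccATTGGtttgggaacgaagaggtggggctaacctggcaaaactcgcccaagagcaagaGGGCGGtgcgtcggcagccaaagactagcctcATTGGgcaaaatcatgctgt
The sterol element of Hmgcs1 began 137 bases before the start, between CCAAT matches at 176 and 45 bases. Hsd17b7 held 3 CCAAT and 3 GGGCGG matches, Mvk 5 and 2, and Nsdhl 2 and 1, and no match overlapped another kind in these 4 windows. A match is a description of the letters and not a bound site. Only these exact letters were searched, so the lack of a match does not show that a gene lacks a site.

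As a check of the labels, Zbtb7b lay at 4.26 to 4.76 on the log2 scale on the 6 WT arrays and at 2.96 to 3.62 on the 6 KO arrays, and whether its probe set lies in the deleted part is unknown. Ucp1, the uncoupling protein that defines brown fat, lay between 11.55 and 12.01 in KO Room Temperature and between 12.41 and 12.95 in the other 3 groups. The mean of 10 hepatocyte markers, included because 1 label field names liver, lay between 3.24 and 3.48, with Cyp2e1 at 10.18 to 11.90 and the other 9, albumin among them, at 1.17 to 4.88. The mean of 12 skeletal muscle markers ranged from 2.77 to 9.24 and overlapped between all groups, and the origin of this signal was not tested. KO Cold replicate 3 stood apart by its neutrophil markers (mean of 10 genes 4.02, against 1.91 to 2.61 on the other 11 arrays). KO Cold replicate 1 had the lowest mean over the 30 sterol genes (6.54, against 6.77 to 7.11 on the others). Over all probe sets it also had the lowest upper quartile (5.474, against 5.479 to 5.593). Its median was the highest (2.83, against 2.63 to 2.78). The low mean is therefore not shown to be particular to sterol genes, and the part of the whole array in it was not tested. The mean of 12 macrophage markers was 5.91 to 6.29 in WT Room Temperature, 6.63 to 6.83 in KO Room Temperature, 6.53 to 6.88 in WT Cold and 6.56 to 7.34 in KO Cold. In whole tissue, fewer cells of a type and less RNA per cell cannot be told apart.

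The cold comparison asked which sterol genes changed within 4 h at 4 °C. In both genotypes Sqle and Hsd17b7 rose and Fdft1, Dhcr7, Npc1, Abca1 and Mbtps1 fell, each by a log2 difference between 0.52 and 1.68 in size. In WT 4 of 30 genes rose and 5 fell, and in KO 3 rose and 11 fell, by limma's moderated test at an adjusted p under 0.05. Of all genes tested, 17.4% passed in WT (9.39% rose and 7.98% fell) and 19.2% in KO (8.34% rose and 10.8% fell). The 30 genes had a median log2 difference of -0.14 in WT and -0.21 in KO, beside -0.02 and 0.00388 over all genes. Brighter genes, those averaging 5 or more over the arrays, passed more often, 43.6% of 8475 in WT and 45.5% in KO when fitted alone, and of the 26 sterol genes among them 11 passed in WT and 13 in KO. The 7 genes called in both genotypes moved the same way in both, and they were 77.8% of the 9 called in WT and 50.0% of the 14 called in KO. Of all genes 5.66% rose in both, 5.6% fell in both and 0.0225% passed in opposite directions. Without regard to the test, the cold arrays of WT lay entirely above the room-temperature arrays for 6 of the 30 genes and entirely below for 10, beside 18.8% and 18% of all genes (36.8% in either direction). In KO 4 lay entirely above and 14 entirely below, beside 14.4% and 17.2% of all genes (31.6% in either direction). The WT and KO cold comparisons use separate arrays but a common estimate of each gene's spread, so their tests are not independent. After cyclic loess between arrays the WT split was 2 higher and 9 lower. Without KO Cold replicate 1 the KO count was 13, without KO Cold replicate 3 it was 13, and without both, chosen after seeing the data, it was 11 with the lone KO Cold array assumed to vary like the other groups.

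**Figure D1:**
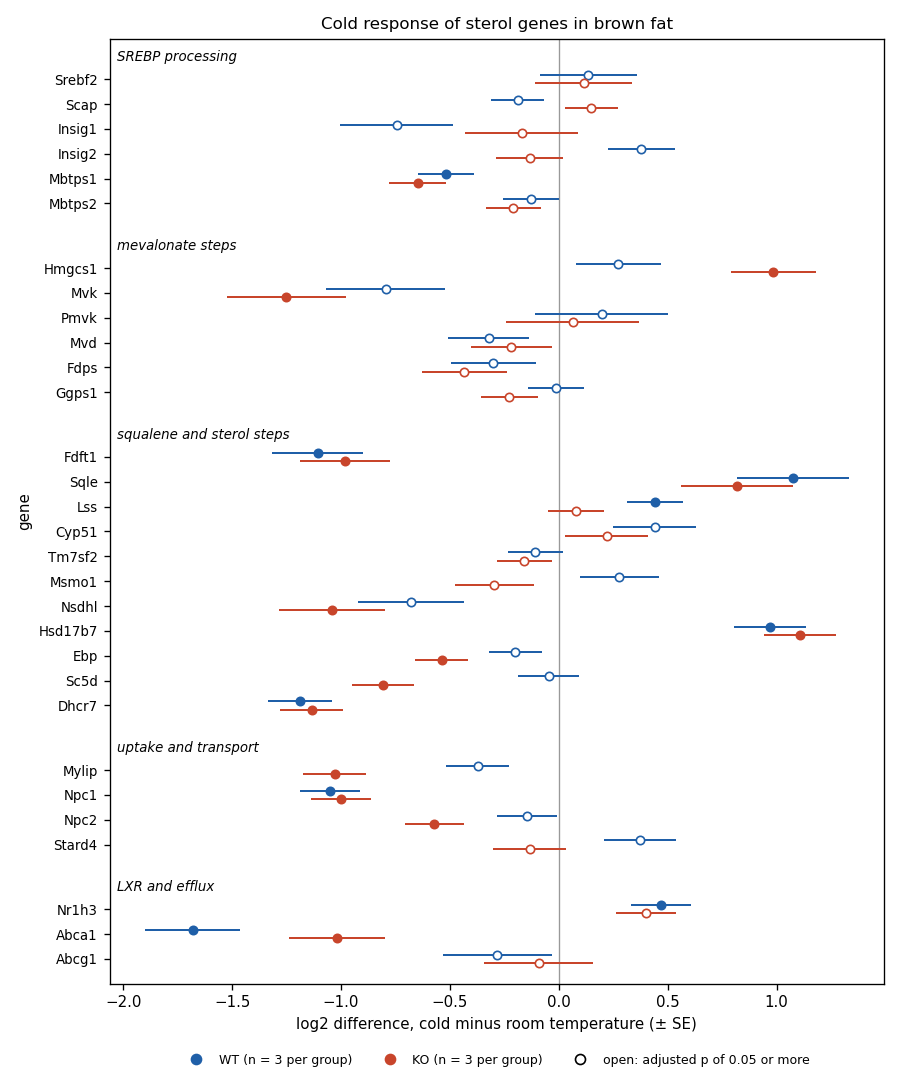
Log2 difference between cold and room temperature (horizontal axis, ± SE) for each of the 30 sterol genes (vertical axis, grouped by role), in WT (blue) and KO (red), with 3 arrays per group. Filled points passed an adjusted p of 0.05. Filled points lie on both sides of 0 within the squalene and sterol steps, from -1.19 for Dhcr7 to 1.07 for Sqle in WT.

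Of the 6 genes of sterol sensing and SREBP processing, only Mbtps1 passed the test in cold. In WT and KO, 17.4% and 19.2% of all genes passed, and 43.6% and 45.5% of the brighter genes fitted alone. Srebf2, which encodes SREBP-2, had log2 signals of 7.06, 6.77 and 6.97 in WT Room Temperature and 6.92, 7.16 and 7.12 in WT Cold. In KO the values were 6.68, 6.62 and 6.81 at room temperature and 6.17, 7.17 and 7.11 in the cold. The groups overlapped in both genotypes, and KO Cold replicate 1 was the lowest of the 12 arrays. The cold difference was 0.14 ± 0.22 (SE, n = 3 per group) in WT and 0.11 ± 0.22 in KO, with adjusted p-values of 0.763 and 0.80 by limma. Mbtps1, the site-1 protease that makes the initial cut in SREBPs, had 8.16, 7.90 and 8.05 in WT at room temperature and 7.48, 7.49 and 7.59 in the cold. Its KO values were 7.91, 8.05 and 7.82 at room temperature and 7.10, 7.46 and 7.27 in the cold. Every cold array lay under every room-temperature array. Mbtps1 fell by 0.52 ± 0.13 in WT (adjusted p = 0.0158) and by 0.65 ± 0.13 in KO (adjusted p = 0.00402). In WT it did not pass without WT Cold replicate 1 (adjusted p = 0.0581) or 2 (0.0554), without WT Room Temperature replicate 1 (0.0602) or with the skeletal muscle mean as a covariate (0.0527). In KO it did not pass without KO Cold replicates 1 and 3 together (-0.46, adjusted p = 0.104).

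The INSIG genes gave no call in cold in the fit reported here, although Insig1 passed in some other fits. Insig1, itself a well-known SREBP target, had 9.42, 9.48 and 9.68 in WT at room temperature and 8.55, 9.32 and 8.48 in the cold. The KO signals were 8.92, 9.17 and 8.75 at room temperature and 8.24, 8.85 and 9.23 in the cold. The WT groups did not overlap and the KO groups did. The cold difference was -0.74 ± 0.26 in WT (adjusted p = 0.0710) and -0.17 ± 0.26 in KO (adjusted p = 0.733). In WT it passed in 7 of 22 other settings, among them array weights (0.0453), cyclic loess (0.0449), the filter on low signal (0.0357) and the fit without WT Cold replicate 2 (-1.01, 0.0205), with adjusted p-values of 0.0205 to 0.233 over all 22. The KO value was 0.096 without KO Cold replicate 1 and -0.40 without KO Cold replicate 3, the array with high neutrophil markers. Insig2, whose protein also retains SCAP, had 6.97, 7.04 and 7.33 in WT at room temperature and 7.63, 7.36 and 7.48 in the cold, so that the cold arrays were higher. The KO arrays gave 7.06, 7.25 and 7.23 at room temperature and 6.77, 7.22 and 7.16 in the cold, with overlap. Its differences were 0.38 ± 0.15 (adjusted p = 0.119) and -0.13 ± 0.15 (adjusted p = 0.634). Scap differed by -0.19 ± 0.12 in WT and 0.15 ± 0.12 in KO, and Mbtps2, the site-2 protease, by -0.13 ± 0.13 and -0.21 ± 0.13, with adjusted p-values of 0.321 or more.

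Among the 6 measured genes of the mevalonate steps, 0 passed in WT and 2 in KO, where Hmgcs1 rose and Mvk fell. The shares passing were 17.4% and 19.2% over all genes, and 43.6% and 45.5% over the brighter genes fitted alone. Hmgcs1, the synthase that makes HMG-CoA, had 9.86, 9.11 and 9.29 in WT at room temperature and 9.71, 9.65 and 9.70 in the cold. The KO arrays had 8.42, 8.14 and 8.57 at room temperature and 9.13, 9.37 and 9.60 in the cold. The WT groups overlapped, whereas every KO Cold array was above every KO Room Temperature array. The cold difference was 0.27 ± 0.19 in WT (adjusted p = 0.408) and 0.98 ± 0.19 in KO (adjusted p = 0.00360), which is 1.98-fold. The difference between these responses, as the genotype by temperature interaction, was 0.71 ± 0.28 (adjusted p = 0.395).

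Mvk, mevalonate kinase, had 5.34, 5.03 and 5.80 in WT at room temperature and 5.04, 4.50 and 4.25 in the cold. Its KO values were 5.38, 5.58 and 5.62 at room temperature and 3.76, 4.28 and 4.79 in the cold. The groups overlapped in WT and were apart in KO. Mvk fell by 1.25 ± 0.27 in KO (2.38-fold, adjusted p = 0.00657) and stood at -0.79 ± 0.27 in WT (adjusted p = 0.0678). The WT value passed in 6 of 21 other settings, among them array weights (0.0337), cyclic loess (0.0495) and the fit without WT Cold replicate 1 (-1.01, 0.0400), with adjusted p-values of 0.0337 to 0.23 over all 21. The other 4 genes did not pass in either genotype. Fdps, farnesyl diphosphate synthase, differed by -0.30 ± 0.20 in WT and -0.43 ± 0.20 in KO, and Ggps1, which makes geranylgeranyl diphosphate, by -0.01 ± 0.13 and -0.23 ± 0.13. Pmvk, the next kinase after Mvk, differed by 0.20 ± 0.30 and 0.06 ± 0.30. Mvd, the decarboxylase of the pathway, had signals of 3.54 to 4.39 over all arrays, where the median over all probe sets of an array was 2.63 to 2.83, and differed by -0.32 ± 0.19 and -0.22 ± 0.19. For these 4 genes the adjusted p-values were 0.16 or more.

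Of the 11 squalene and sterol genes, 3 rose and 2 fell in WT, and 2 rose and 5 fell in KO. Over all genes 17.4% passed in WT and 19.2% in KO, and over the brighter genes fitted alone 43.6% and 45.5%. Fdft1, squalene synthase, which commits farnesyl diphosphate to sterols, had 10.61, 11.34 and 11.25 in WT at room temperature and 10.07, 9.83 and 9.97 in the cold. The KO arrays had 11.52, 11.68 and 11.58 at room temperature and 10.28, 10.56 and 10.98 in the cold. Within each genotype the cold arrays were all lower. Fdft1 fell by 1.11 ± 0.21 in WT (adjusted p = 0.00295) and by 0.98 ± 0.21 in KO (adjusted p = 0.00538).

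Sqle, squalene epoxidase, the next enzyme and a rate-limiting step of the sterol branch, went the other way. Its signals were 4.98, 4.00 and 4.43 in WT at room temperature and 5.56, 5.65 and 5.41 in the cold. In KO they were 3.72, 4.60 and 4.02 at room temperature and 4.73, 4.88 and 5.19 in the cold. The cold arrays were all higher within each genotype, by 1.07 ± 0.26 in WT (2.10-fold, adjusted p = 0.0122) and 0.82 ± 0.26 in KO (1.76-fold, adjusted p = 0.0430). The WT call did not pass without WT Room Temperature replicate 2 (0.84, adjusted p = 0.0529). The KO call was lost in 9 of 12 fits that left out 1 array. It was lost without KO Cold replicate 1 (adjusted p = 0.0521), 2 (0.0842) or 3 (0.127), without KO Room Temperature replicate 1 (0.159) or 3 (0.117), without WT Cold replicate 1 (0.0595), 2 (0.0582) or 3 (0.0574), and without WT Room Temperature replicate 3 (0.0571), with values of 0.62 to 0.92. It was also lost with array weights (0.0541), with the replicate number as a block (0.0727), with the 6 KO arrays alone (0.0716) and without KO Cold replicates 1 and 3 together (0.246). Over both genotypes Sqle rose by 0.94 ± 0.18 (adjusted p = 0.00173), a call kept in every fit that tested it.

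**Figure D2:**
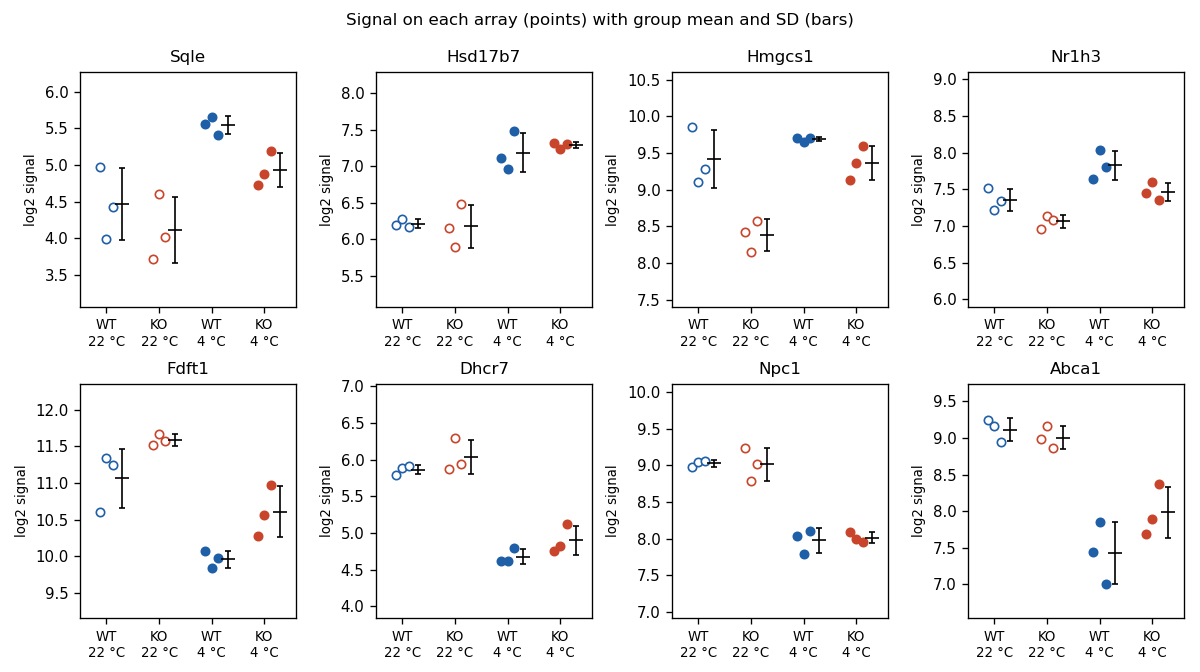
Log2 signal of 8 sterol genes on each of the 12 arrays (points; blue WT, red KO; open 22 °C, filled 4 °C), with the mean and SD of the 3 arrays of a group as a bar. The vertical axes span the same range of log2 units. Sqle and Hsd17b7 are higher in the cold and Fdft1, Dhcr7, Npc1 and Abca1 lower, in both genotypes, and Hmgcs1 is lowest in the KO arrays at 22 °C (8.14 to 8.57).

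Hsd17b7, the 3-ketosteroid reductase of the pathway, was the other enzyme that rose in both genotypes. It had 6.20, 6.28 and 6.16 in WT at room temperature and 7.12, 6.96 and 7.48 in the cold. Among KO arrays the values were 6.15, 5.90 and 6.49 at room temperature and 7.32, 7.24 and 7.30 in the cold. All 6 cold arrays were above all 6 room-temperature arrays, by 0.97 ± 0.17 in WT (adjusted p = 0.00167) and 1.11 ± 0.17 in KO (adjusted p = 6.47e-04). Lss, lanosterol synthase, which closes the sterol rings, had 5.54, 5.62 and 5.65 in WT at room temperature and 5.98, 5.97 and 6.19 in the cold. Its KO values were 5.87, 6.17 and 5.86, then 5.94, 6.17 and 6.04. The WT groups were apart and the KO groups overlapped. Lss rose by 0.44 ± 0.13 in WT (adjusted p = 0.0329) and stood at 0.08 ± 0.13 in KO (adjusted p = 0.753). The WT call was lost without any of the 6 WT arrays, namely WT Cold replicate 1 (adjusted p = 0.0651), 2 (0.0620) or 3 (0.132) and WT Room Temperature replicate 1 (0.0954), 2 (0.0728) or 3 (0.0599), with values of 0.37 to 0.48. It was also lost after cyclic loess (0.0530), after centring on array medians (0.0517) and with the muscle covariate (0.0789).

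Dhcr7, the reductase of the last step to cholesterol, fell in both genotypes. It had 5.79, 5.88 and 5.92 in WT at room temperature and 4.62, 4.61 and 4.79 in the cold, and in KO 5.87, 6.30 and 5.94, then 4.75, 4.83 and 5.12. All cold arrays were under all room-temperature arrays. The fall was 1.19 ± 0.15 in WT (2.28-fold, adjusted p = 2.11e-04) and 1.13 ± 0.15 in KO (2.20-fold, adjusted p = 2.32e-04). Nsdhl, a sterol dehydrogenase that works with Hsd17b7 in removing methyl groups from the ring, had 8.05, 8.34 and 8.29 in WT at room temperature and 7.39, 7.81 and 7.43 in the cold. In KO the values were 8.50, 8.70 and 7.98 at room temperature and 6.82, 7.46 and 7.78 in the cold. Its cold arrays were lower in each genotype without overlap. Nsdhl fell by 1.04 ± 0.24 in KO (adjusted p = 0.00980) and stood at -0.68 ± 0.24 in WT (adjusted p = 0.0795). The KO call was lost with the 6 KO arrays alone (adjusted p = 0.0545) and without KO Cold replicates 1 and 3 together (0.0527). The WT value passed in 6 of 22 other settings, among them the 6 WT arrays alone (0.0172), array weights (0.0332), cyclic loess (0.0496), the filter on low signal (0.0402) and the fit without KO Cold replicate 1 (0.0313), with adjusted p-values of 0.0172 to 0.213 over all 22.

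Ebp and Sc5d, which act on the ring just before Dhcr7, as sterol isomerase and lathosterol desaturase, passed as lower in KO. Ebp had 7.12, 7.08 and 7.11 in WT at room temperature and 6.90, 6.93 and 6.88 in the cold, and in KO 6.87, 6.84 and 7.07, then 6.34, 6.24 and 6.58. The groups did not overlap in either genotype. It fell by 0.54 ± 0.12 in KO (adjusted p = 0.00792, and 0.0593 from the 6 KO arrays alone) and stood at -0.20 ± 0.12 in WT (adjusted p = 0.317). Sc5d had 8.20, 7.96 and 8.05 in WT at room temperature and 7.90, 8.19 and 7.99 in the cold, with overlap. In KO it had 8.27, 8.43 and 8.08, then 7.57, 7.53 and 7.26, with no overlap. The difference was -0.05 ± 0.14 in WT (adjusted p = 0.881) and -0.81 ± 0.14 in KO (adjusted p = 0.00176). The interaction for Sc5d, -0.76 ± 0.20, had the smallest adjusted p of the 30 genes, 0.249.

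The remaining sterol enzymes did not pass in cold. Cyp51, lanosterol demethylase, differed by 0.44 ± 0.19 in WT (adjusted p = 0.146) and 0.22 ± 0.19 in KO (0.504). Tm7sf2, a sterol reductase, differed by -0.11 ± 0.13 and -0.16 ± 0.13. Msmo1, the methylsterol oxidase, differed by 0.28 ± 0.18 in WT and -0.30 ± 0.18 in KO, with adjusted p-values of 0.358 and 0.316.

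Among the 4 measured genes of uptake and transport, Npc1 fell in both genotypes, and Mylip and Npc2 passed as lower in KO. As lower in the cold, 7.98% of all genes passed in WT and 10.8% in KO. Npc1 spans the lysosomal membrane and releases cholesterol that arrives with lipoproteins. It had 8.98, 9.05 and 9.06 in WT at room temperature and 8.04, 7.79 and 8.10 in the cold, and in KO 9.24, 8.79 and 9.02, then 8.09, 8.0 and 7.95. Every cold array was under every room-temperature array. The fall was 1.05 ± 0.14 in WT (adjusted p = 3.02e-04) and 1.0 ± 0.14 in KO (adjusted p = 3.62e-04). A dimmer second probe set of Npc1, with a mean signal of 3.24, did not separate the groups, and the mean of both probe sets gave -0.58 in WT and -0.36 in KO, the latter with an adjusted p of 0.0715.

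Npc2, the soluble partner that hands cholesterol to NPC1, had 9.85, 9.74 and 9.90 in WT at room temperature and 9.76, 9.79 and 9.51 in the cold, with overlap. In KO it had 9.88, 10.17 and 10.23, then 9.48, 9.42 and 9.67, with no overlap. It fell by 0.57 ± 0.14 in KO (adjusted p = 0.0112, and 0.0536 from the 6 KO arrays alone) and stood at -0.14 ± 0.14 in WT (adjusted p = 0.557). Mylip, also called IDOL, an LXR-induced ubiquitin ligase that removes lipoprotein receptors, had 8.88, 9.05 and 9.04 in WT at room temperature and 8.63, 8.40 and 8.82 in the cold. Its KO signals were 9.12, 9.31 and 9.15, then 7.97, 8.36 and 8.16. The cold arrays were lower in each genotype without overlap. Mylip fell by 1.03 ± 0.14 in KO (2.04-fold, adjusted p = 4.02e-04) and stood at -0.37 ± 0.14 in WT (adjusted p = 0.102, with 2 of 22 other settings passing), and the interaction was -0.66 ± 0.20 (adjusted p = 0.302). Stard4, a cytosolic sterol carrier, had signals of 3.25 to 4.16, and its differences of 0.37 ± 0.17 in WT and -0.13 ± 0.17 in KO did not pass (adjusted p = 0.16 and 0.662).

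Of the LXR and efflux genes, Abca1 fell in both genotypes and Nr1h3 rose in WT. Abca1, the pump that loads cholesterol and phospholipid onto apolipoprotein acceptors, had 9.25, 9.16 and 8.94 in WT at room temperature and 7.44, 7.86 and 7.0 in the cold. In KO it had 8.99, 9.16 and 8.86, then 7.69, 7.89 and 8.37. The cold arrays were lower in both genotypes, by 1.68 ± 0.22 in WT (3.21-fold, adjusted p = 3.03e-04) and 1.02 ± 0.22 in KO (2.03-fold, adjusted p = 0.00606). The interaction was 0.66 ± 0.31 (adjusted p = 0.482). Abcg1, which exports cholesterol to high-density lipoprotein, had 6.96, 6.78 and 6.36 in WT at room temperature and 6.32, 6.48 and 6.45 in the cold. Its KO values were 6.33, 6.50 and 6.35, then 5.61, 6.74 and 6.55. The groups overlapped, and the differences of -0.28 ± 0.25 (adjusted p = 0.521) and -0.09 ± 0.25 (adjusted p = 0.86) did not pass. Both pumps are also expressed by macrophages, and of 12 macrophage markers 6 rose and 0 fell in WT, and 4 rose and 1 fell in KO, beside the 9.39% and 7.98% of all genes that rose and fell in WT and the 8.34% and 10.8% in KO. The lowest single signal of those markers was 3.16, for Fcgr1, beside array medians of 2.63 to 2.83. The part of the macrophage markers in the result was not tested.

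Nr1h3, which encodes LXR alpha, had 7.51, 7.21 and 7.34 in WT at room temperature and 7.64, 8.03 and 7.80 in the cold. In KO it had 6.96, 7.14 and 7.09, then 7.44, 7.59 and 7.35. The cold arrays were higher in both genotypes without overlap. Nr1h3 rose by 0.47 ± 0.14 in WT (1.39-fold, adjusted p = 0.0339) and stood at 0.40 ± 0.14 in KO (adjusted p = 0.0618, with 3 of 22 other settings passing). Over both genotypes it rose by 0.44 ± 0.10 (adjusted p = 0.00472). The WT call was lost without WT Cold replicate 2 (adjusted p = 0.143) or 3 (0.0812), without WT Room Temperature replicate 2 (0.121) or 3 (0.0789), after cyclic loess (0.0640), with the replicate block (0.0512) and with the 6 WT arrays alone (0.0571).

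With both genotypes averaged, 4 sterol genes rose in the cold (Hsd17b7, Sqle, Hmgcs1 and Nr1h3) and 11 fell (Abca1, Dhcr7, Fdft1, Npc1, Mvk, Nsdhl, Mylip, Mbtps1, Sc5d, Ebp and Npc2), where 27.2% of all genes passed, 12.9% as higher and 14.3% as lower. Of the genes averaging 5 or more over the arrays, as most sterol genes do, 58.7% of 8475 passed when fitted alone. In that fit Lss (adjusted p = 0.0208) and Cyp51 (0.0485) also passed as higher by limma. Fdps (0.0354) and Insig1 (0.0484) also passed as lower, and Sqle and Mvk, with means under 5, were not tested. Cold arrays of both genotypes lay entirely above the room-temperature arrays for Hsd17b7 alone, and entirely below for Dhcr7, Npc1, Abca1, Mylip, Mbtps1 and Nsdhl. Among all genes 6.73% were apart in the higher and 7.54% in the lower direction. Of the 15 calls in the fit reported here 14 were kept in all other settings that tested the gene. Npc2 was lost with the skeletal muscle mean as a covariate (-0.31, adjusted p = 0.0504). The median over the 30 genes was -0.18.

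The genotype comparison asked what the loss of Zbtb7b changed at each temperature. At room temperature 1 of the 30 genes differed by the test, Hmgcs1, which was lower in KO, where 0.55% of all genes passed, 0.266% as higher and 0.284% as lower. The KO values of 8.42, 8.14 and 8.57 lay under the WT values of 9.86, 9.11 and 9.29, with WT replicate 1 the highest. The difference was -1.04 ± 0.19 (SE, n = 3 per group, 2.05-fold lower, adjusted p = 0.0369 by limma). Over both temperatures it was -0.68 ± 0.14 (adjusted p = 0.0301), and it was the 1 of 30 genes that passed, where 1.63% of all genes did (0.794% as higher and 0.834% as lower). In the cold, with 9.13, 9.37 and 9.60 in KO and 9.71, 9.65 and 9.70 in WT, the groups did not overlap either, and the difference of -0.32 ± 0.19 did not pass (adjusted p = 0.486). Without cold exposure the KO arrays lay entirely above the WT arrays for 4 of the 30 genes and entirely below for 4, beside 9% and 7.97% of all genes (17% in either direction). Over both temperatures the 6 KO arrays were apart from the 6 WT arrays for 0 of the 30 genes, beside 0.739% of all genes (0.406% higher and 0.334% lower).

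The room-temperature call of Hmgcs1 lay near the threshold. Cold arrays do not enter its difference, which stayed at -1.04 when a cold array was left out. The call was lost in 9 of 12 fits that left out 1 array, with values from -0.81 to -1.13. These were the fits without WT Room Temperature replicate 1 (adjusted p = 0.0950) or 3 (0.0711), KO Room Temperature replicate 1 (0.0892), 2 (0.145) or 3 (0.0738), WT Cold replicate 1 (0.0628), 2 (0.0610) or 3 (0.0609), and KO Cold replicate 2 (0.0619). It was also lost with the replicate block (0.0564), the 6 arrays alone (0.135) and the muscle covariate (-0.92, adjusted p = 0.0901). The call over both temperatures was lost in 7 such fits, without KO Cold replicate 2 (adjusted p = 0.0550), KO Room Temperature replicate 1 (0.0613) or 2 (0.0731), WT Cold replicate 1 (0.0804), 2 (0.0703) or 3 (0.0778), or WT Room Temperature replicate 3 (0.0555). With the muscle covariate its adjusted p was 0.0626, and without KO Cold replicates 1 and 3 together 0.116. The skeletal muscle mean was 2.77 to 7.10 in WT and 3.23 to 9.24 in KO at room temperature, with 0 of the 12 markers past the test. The macrophage mean, given above, was higher on all KO than on all WT arrays at room temperature, with 0 of the 12 markers past the test. For 9 of these 12 the KO arrays lay entirely above the WT arrays and for 0 entirely below, beside 9% and 7.97% of all genes. Their median difference was 0.72, and their smallest adjusted p by limma was 0.065. Of 10 brown adipocyte markers 3 were lower in KO at room temperature, Dio2 by -3.55 ± 0.21 (adjusted p = 1.14e-05), Elovl3 by -2.0 ± 0.32 (adjusted p = 0.0169) and Ucp1 by -0.80 ± 0.14 (adjusted p = 0.0257). The part of these markers in the Hmgcs1 difference was not tested beyond the muscle covariate.

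**Figure D3:**
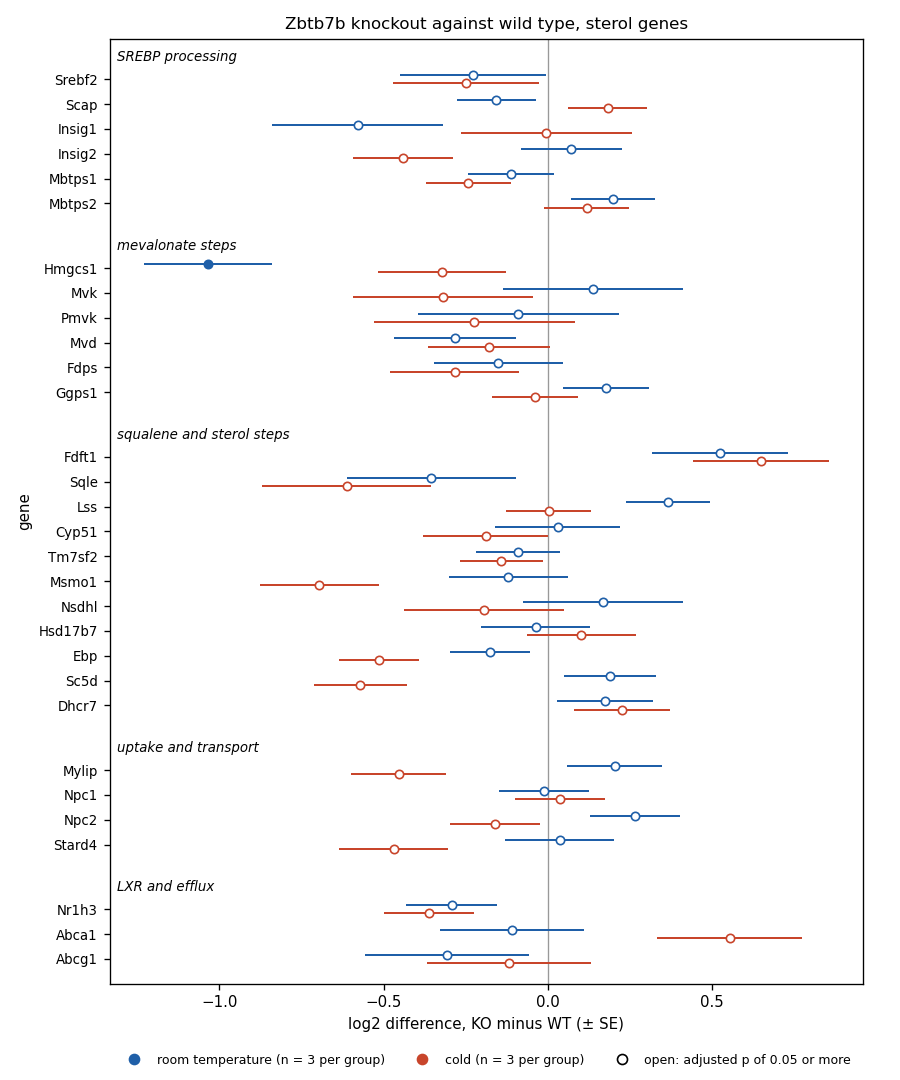
Log2 difference between KO and WT (horizontal axis, ± SE) for each of the 30 sterol genes (vertical axis, grouped by role), at room temperature (blue) and in the cold (red), with 3 arrays per group. Filled points passed an adjusted p of 0.05. The 1 filled point is Hmgcs1 at room temperature, at -1.04.

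In the cold 0 of the 30 genes differed between genotypes by limma at an adjusted p under 0.05, where 0.911% of all genes passed (0.361% as higher and 0.55% as lower). An unadjusted p under 0.05 was found for 10, and for 14.4% of all genes. Among the 8475 genes averaging 5 or more over the arrays, fitted alone, that share was 24.8%, with 131 called higher and 266 lower. The KO arrays lay entirely under the WT arrays for 10 of the 30 genes and entirely above for 2, beside 11.1% and 9.55% of all genes (20.6% in either direction). This share was not counted among brighter genes. The 30 genes had a median of -0.19 (0.00956 over all genes), with 22 below 0 and 8 above. Among these brighter genes the median was -0.175 over 26 sterol genes and -0.09 over all 8475. Ebp was at 6.34, 6.24 and 6.58 in KO against 6.90, 6.93 and 6.88 in WT, a difference of -0.51 ± 0.12 (adjusted p = 0.0750). Sc5d was at 7.57, 7.53 and 7.26 against 7.90, 8.19 and 7.99 (-0.57 ± 0.14, adjusted p = 0.0887). Msmo1 was at 5.23, 5.34 and 4.88 against 5.86, 5.94 and 5.74 (-0.70 ± 0.18, adjusted p = 0.10). For each of these 3 sterol enzymes the KO arrays were lower without overlap. With genes of a mean signal under 5 left out, all 3 passed (adjusted p = 0.0321, 0.0371 and 0.0468), as did 4.68% of the 8475 genes then tested.

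Fdft1 differed in the other direction, with KO arrays above WT arrays at both temperatures. The difference was 0.52 ± 0.21 (adjusted p = 0.36) without cold exposure, 0.65 ± 0.21 (adjusted p = 0.178) with it and 0.59 ± 0.15 (adjusted p = 0.0715) over both. The value over both passed without KO Cold replicate 1 (0.67, adjusted p = 0.0384), after cyclic loess (adjusted p = 0.0466), with array weights (0.0451), with a trended and robust spread (0.0394) and without dim genes (0.0338). In the other 16 settings it did not pass, with adjusted p-values up to 0.163. Without WT Room Temperature replicate 1, the lowest WT array there, the value over both was 0.47 (adjusted p = 0.124) and the one at room temperature 0.29 (adjusted p = 0.704). Lss, the ring-closing enzyme, was also higher on all 3 KO arrays at room temperature (0.37 ± 0.13, adjusted p = 0.285). Insig1 was lower on all 3 KO arrays there (-0.58 ± 0.26, adjusted p = 0.427), and the difference in the cold was -0.01 ± 0.26 (adjusted p = 0.997). Nr1h3 was lower in KO without overlap at both temperatures, by -0.29 ± 0.14 and -0.36 ± 0.14, and did not pass (adjusted p = 0.449 and 0.254). Srebf2 stood at -0.23 ± 0.22 and -0.25 ± 0.22, Abca1 at -0.11 ± 0.22 and 0.55 ± 0.22, and Npc1 at -0.01 ± 0.14 and 0.04 ± 0.14, with adjusted p-values of 0.272 or more.

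The interaction asked whether the cold response differed between genotypes. By limma 0 of the 30 genes passed, beside 0.0271% of all genes (0.0225% as higher and 0.00451% as lower). An unadjusted p under 0.05 was found for 6 of the 30, for 10.5% of all genes and for 14% of the 8475 brighter genes fitted alone. A gene called in 1 genotype and not in the other, such as Sc5d, Mylip, Hmgcs1 or Lss, is therefore not shown to respond differently. The interaction values ran from -0.76 for Sc5d to 0.71 for Hmgcs1, with a median of -0.13, beside -0.01 over all genes. That median was 0.025 after cyclic loess. Among the brighter genes it was -0.105 over the 26 sterol genes and -0.11 over all 8475.

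Further genes of sterol metabolism were taken from 5 lists with 42 names, of which 37 were measured. In cold 3 rose and 11 fell in WT, 5 rose and 14 fell in KO, and 4 rose and 19 fell over both genotypes, and the medians were -0.34, -0.29 and -0.32. Of all genes 17.4%, 19.2% and 27.2% passed, with medians of -0.02, 0.00388 and -0.00861. Of the genes averaging 5 or more over the arrays, as most of the further genes do, 43.6%, 45.5% and 58.7% of 8475 passed when fitted alone. Those shares are not from the fit that gave the counts of the 37 genes, which include genes averaging under 5. Of 5 LXR partners and targets 2 fell in WT and 3 in KO. Srebf1, the gene of the SREBP that favours fatty acid synthesis and a known LXR target, fell by 2.19 ± 0.25 in WT (adjusted p = 1.31e-04) and by 2.08 ± 0.25 in KO (adjusted p = 1.45e-04). Rxra, the partner receptor of LXRs, fell by 0.39 ± 0.12 and 0.56 ± 0.12 (adjusted p = 0.0464 and 0.00712). The WT call of Rxra was lost in 9 of 12 fits that left out 1 array, all but those without KO Room Temperature replicate 3 and KO Cold replicates 1 and 3, with adjusted p-values up to 0.166. Abcg4, a relative of Abcg1, was dim and had 5.15, 3.58 and 4.04 in KO at room temperature and 3.28, 3.14 and 3.15 in the cold, with 1 room-temperature array standing above the rest. It fell by 1.06 ± 0.31 (adjusted p = 0.0309), and by 0.62 without KO Room Temperature replicate 1 (adjusted p = 0.0658). The call was also lost without KO Cold replicate 1 (0.0583), 2 (0.0793) or 3 (0.0692). Rxrb and Lpcat3 did not pass.

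**Figure D4:**
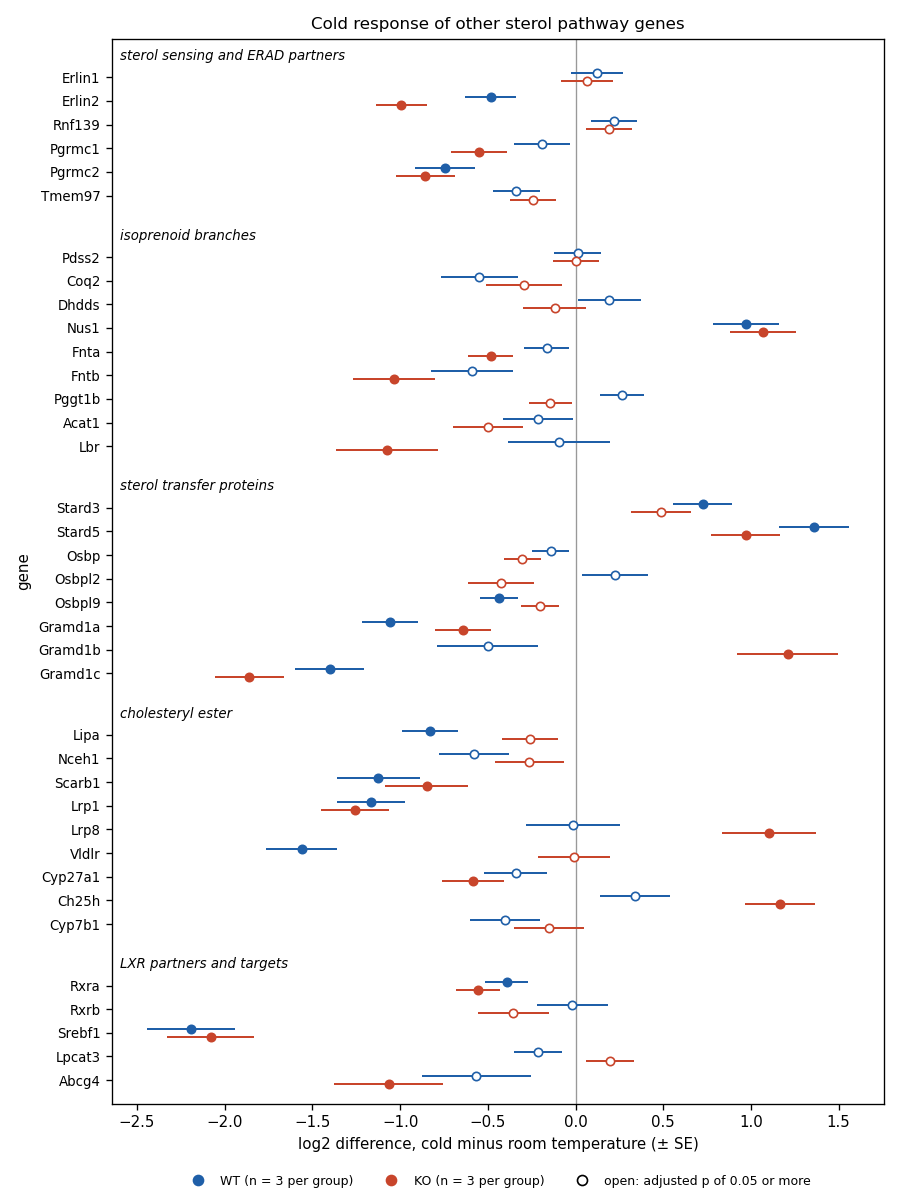
Log2 difference between cold and room temperature (horizontal axis, ± SE) for 37 further genes of sterol metabolism (vertical axis, in 5 lists), in WT (blue) and KO (red), with 3 arrays per group. Filled points passed an adjusted p of 0.05. Srebf1 lies lowest in both genotypes (-2.19 and -2.08), and the WT and KO points of Vldlr (-1.56 and -0.01) lie apart.

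Of the 9 measured genes of ester breakdown, lipoprotein uptake and oxysterols, 0 rose and 4 fell in WT, and 2 rose and 3 fell in KO. Shares over all genes were 17.4% in WT and 19.2% in KO, and over the brighter genes fitted alone 43.6% and 45.5%. Lrp1, a large endocytic receptor, fell by 1.16 ± 0.19 in WT and 1.26 ± 0.19 in KO (adjusted p = 0.00139 and 7.68e-04), and Scarb1, the receptor for high-density lipoprotein, by 1.12 ± 0.24 and 0.85 ± 0.24 (adjusted p = 0.00610 and 0.0250). The KO call of Scarb1 was lost without KO Room Temperature replicate 1 (0.0661) or 2 (0.0766), KO Cold replicate 1 (-0.53, 0.0564) or 2 (0.0528), and with the 6 KO arrays alone (0.104). Vldlr, a receptor for triglyceride-rich particles and a target of the ligase MYLIP, had 9.29, 9.18 and 9.29 in WT at room temperature and 7.68, 7.61 and 7.79 in the cold. In KO it had 8.85, 9.0 and 8.78, then 8.41, 8.78 and 9.42. The WT Cold arrays were all below the WT Room Temperature arrays, and the KO groups overlapped. Vldlr fell by 1.56 ± 0.20 in WT (adjusted p = 2.95e-04), stood at -0.01 ± 0.20 in KO (adjusted p = 0.986) and was higher in KO than in WT in the cold by 1.18 ± 0.20 (adjusted p = 0.0200). The latter was lost without WT Cold replicate 1 (0.0888), 2 (0.0916) or 3 (0.0614), without KO Cold replicates 1 and 3 together (0.0557) and with the 6 cold arrays alone (0.135). The interaction was 1.55 ± 0.29 and did not pass (adjusted p = 0.0880).

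Lipa, the lysosomal acid lipase that frees cholesterol from its esters upstream of NPC1, was lower in KO at room temperature, with 9.35, 9.27 and 9.34 against 10.34, 10.11 and 10.21 in WT. The groups did not overlap, and the difference was -0.90 ± 0.16 (adjusted p = 0.0298). It was lost without any of the 6 room-temperature arrays, namely WT replicate 1 (0.112), 2 (0.0695) or 3 (0.0727) and KO replicate 1 (0.0732), 2 (0.113) or 3 (0.0951), and also with the replicate block (0.0564), the 6 arrays alone (0.0541) and the muscle covariate (0.0755). It fell in the cold by 0.83 ± 0.16 in WT (adjusted p = 0.00368) and stood at -0.26 ± 0.16 in KO (adjusted p = 0.323). Lrp8 and Ch25h, the enzyme that makes 25-hydroxycholesterol, rose in KO by 1.10 ± 0.27 (adjusted p = 0.0122) and 1.17 ± 0.20 (adjusted p = 0.00150), with mean signals of 4.46 and 4.16. The call of Lrp8 was lost without KO Room Temperature replicate 3 (0.95, adjusted p = 0.0529).

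Of 8 sterol transfer genes 2 rose and 3 fell in WT, and 2 rose and 2 fell in KO. Here too the shares were 17.4% and 19.2% over all genes, and 43.6% and 45.5% over the brighter genes fitted alone. Stard5, a soluble sterol carrier, rose by 1.36 ± 0.20 in WT and 0.97 ± 0.20 in KO (adjusted p = 6.21e-04 and 0.00450), and Stard3, which tethers late endosomes, rose by 0.72 ± 0.17 in WT (adjusted p = 0.0112). The GRAMD1 proteins carry cholesterol from the plasma membrane to the endoplasmic reticulum. Gramd1a fell by 1.06 ± 0.16 and 0.64 ± 0.16 (adjusted p = 7.96e-04 and 0.0143), and its KO call was lost without KO Room Temperature replicate 1 (0.0506) or 2 (0.0644), KO Cold replicate 2 (0.0593) and with the 6 KO arrays alone (0.0665). Gramd1c fell in both genotypes (adjusted p = 4.80e-04 and 6.79e-05), from 4.31 (WT) and 4.41 (KO) on average to 2.90 and 2.55. The cold signals lay about the arrays' medians of 2.63 to 2.83, so the size of its fall cannot be read. Gramd1b rose in KO by 1.21 ± 0.29 (adjusted p = 0.0106, and 0.0559 from the 6 KO arrays alone) and stood at -0.50 ± 0.29 in WT (adjusted p = 0.288), with an interaction of 1.71 ± 0.41 (adjusted p = 0.21).

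Of 9 genes of the isoprenoid and other sterol branches 1 rose and 0 fell in WT, and 1 rose and 3 fell in KO. For comparison, 17.4% and 19.2% of all genes passed, and 43.6% and 45.5% of the brighter genes fitted alone. Nus1, a subunit of the enzyme that makes dolichol, rose in both genotypes (0.97 ± 0.19 and 1.07 ± 0.19, adjusted p = 0.00374 and 0.00188). Fntb and Fnta, the subunits of protein farnesyltransferase, fell in KO by 1.03 ± 0.23 and 0.48 ± 0.13 (adjusted p = 0.00787 and 0.0194). The call of Fnta was lost without KO Room Temperature replicate 1 (0.0511) or 3 (0.0602) and after centring on array medians (0.0674). Lbr, a sterol reductase of the nuclear envelope, fell in KO by 1.07 ± 0.29 (adjusted p = 0.0207), a call lost without KO Room Temperature replicate 2 (0.0662) or 3 (0.0849) and without KO Cold replicate 1 (0.0678) or 2 (0.0714). Of 6 partners of sterol sensing and degradation 2 fell in WT and 3 in KO. Pgrmc2, a haem-binding membrane protein, fell by 0.75 ± 0.17 and 0.86 ± 0.17 (adjusted p = 0.00926 and 0.00372), and Erlin2, a membrane protein that binds SREBP and SCAP, by 0.48 ± 0.15 and 0.99 ± 0.15 (adjusted p = 0.0395 and 5.90e-04). The WT call of Erlin2 was lost without WT Room Temperature replicate 2 (0.0817) or 3 (0.137), WT Cold replicate 1 (0.142), 2 (0.0788) or 3 (0.0775), KO Room Temperature replicate 2 (0.0518) and with the muscle covariate (0.128). Apart from Lipa at room temperature and over both temperatures and Vldlr in the cold, none of the 37 genes differed between genotypes by the test in those 3 comparisons.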

How the data were processed

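The deposited values are log2 signals, 1 column per array, made by the authors with RMA in oligo, per the submitters' processing notes, which also name limma and give no versions. RMA removes background, gives all arrays 1 distribution and combines each probe set's probes into 1 value. Because no header names the scale, log2 was inferred from the values, whose quartiles were nearly equal between arrays. Of 41345 probe sets, 23521 carried exactly 1 symbol, 1814 several and 16010 none, which gave 22180 genes with no filter on low signal. Groups and numbers came from the titles. A description field names liver and another knockout and was not used.

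In R 4.3.3 with limma 3.58.1, the 12 arrays were fitted together with a mean for each group (lmFit, eBayes), giving 7 comparisons. The fit was tested on simulated data with 100 genes raised in the cold by a log2 difference of 1 and 100 by 2. Of those raised by 1 it called 70 in WT, 74 in KO and 94 over both genotypes. Of those raised by 2 it called 97, 96 and 99, with 6, 7 and 11 false calls. A gene that did not pass can therefore still have changed. Tests were two-sided, with Benjamini-Hochberg adjustment over all genes of a comparison, and an adjusted p under 0.05 passed. A fold is given only for group means of 4 or more. Other settings were left-out arrays, array weights, cyclic loess, median centring, a low-signal filter, probe set means, a trended and robust spread, the replicate block, each comparison's arrays alone and a skeletal muscle covariate. The members, the lists and the other settings were chosen with earlier results of these data known. Every measured member is named, and values on every array are given for members past the test in any comparison and for Srebf2, Insig1, Insig2, Abca1 and Abcg1. Of the other lists, up to 4 genes with the smallest p in a comparison are named.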

Additional observations from a re-analysis of the deposited data

How the results depend on the processing

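Of 210 pairs of gene and comparison, 40 passed, and 27 of these passed in every other setting that tested the gene. No call of the 30 genes changed direction in any setting. The count of sterol genes called in the cold stayed within 1.5 times. It ranged from 6 to 12 in WT (9 as reported), from 10 to 15 in KO (14 as reported) and from 14 to 17 over both genotypes (15 as reported). The count of 1 for KO against WT at room temperature became 0 with the replicate block, with the muscle covariate and with the 6 arrays alone, and 0 to 1 when 1 array was left out. In the cold the count of 0 became 1 with array weights and 3 without dim genes. Over both temperatures the count of 1 became 3 with array weights, 3 without dim genes, 2 after cyclic loess, 2 with a trended and robust spread, 0 with the muscle covariate, 0 without KO Cold replicates 1 and 3 together, and 0 to 2 when 1 array was left out. The median interaction of -0.13 became 0.025 after cyclic loess, and the median of KO against WT at room temperature ranged from -0.15 to 0.013. The cause of these changes was not tested. Between arrays of the same number, correlations of the deviations from group means ran from -0.313 to 0.258. With 3 arrays per group this cannot tell whether a number stands for a shared origin. With the replicate block the counts were 8 in WT cold, 13 in KO cold and 16 over both. Of all genes called, the share that was higher moved from 43.5% to 54.2% for cold in KO and from 48.4% to 30.9% for KO against WT at room temperature after centring on array medians, and from 39.6% to 55.4% for KO against WT in the cold after cyclic loess.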
